A study of Homo sapiens with 12 samples.

Results

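SAT1 encodes spermidine/spermine N1-acetyltransferase, the enzyme whose acetylation of spermidine and spermine starts their breakdown and export. The genes described here are SAT1 and 9 others of polyamine metabolism: SAT2, ODC1, AMD1, SRM, SMS, OAZ1, AZIN1, PAOX and SMOX. They were taken by symbol, and all 10 were found among the 26334 genes of the count tables and passed the filter on low counts. Their splicing was followed through every event listed under these symbols, 72 of 96477 events for Cisplatin in control cells, 70 of 99787 for Cisplatin in RNF113A-depleted cells, 64 of 96781 for depletion without drug and 72 of 97380 for depletion with Cisplatin.

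The cells were A549, a human lung adenocarcinoma line, transduced with lentivirus and selected with puromycin, where the virus carried either a non-targeting hairpin (shControl) or one shRNA directed at RNF113A (shRNF113A). RNF113A is a RING finger protein of the spliceosome. Each kind of cell was left untreated or was treated with 25 µg/ml of Cisplatin, a platinum compound that crosslinks DNA, for 20 h, which gave 4 groups of 3 libraries. All 4 groups thus share the infection and the selection, and the labels name 1 shRNA against RNF113A, so an effect of depletion and one of this shRNA cannot be told apart. The Cisplatin dose is that of the labels, whereas the authors' paper gives 25 µM for other assays of A549 cells.

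Polyamines are small positively charged molecules that bind nucleic acids and are needed for growth. They are made from ornithine by ornithine decarboxylase (ODC1), with aminopropyl groups supplied through AMD1 and added by the synthases SRM and SMS. The antizyme OAZ1 sends ODC1 to the proteasome and the inhibitor AZIN1 holds the antizyme back. SAT1 acetylates the polyamines, PAOX oxidises the acetylated forms, and SMOX oxidises spermine directly.

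The libraries held between 26220526 and 45721152 read pairs assigned to genes. Those of shRNF113A cells with Cisplatin were the shallowest, at 29590747, 30806147 and 26220526 pairs, against 33660049 or more in the other groups. RNF113A itself had normalised read counts of 743, 707 and 725 in shControl untreated cells, 1144, 1047 and 997 in shControl cells with Cisplatin, 555, 572 and 612 in shRNF113A untreated cells and 908, 855 and 1047 in shRNF113A cells with Cisplatin. Depletion lowered the RNF113A mRNA without drug, by a log2 fold change of -0.31 (adjusted p = 0.0247 in edgeR's quasi-likelihood test), whereas the value with Cisplatin was -0.14 (adjusted p = 0.233), so the mRNA gives only a weak check of the labels. Among markers of lung adenocarcinoma and epithelial cells, KRT7, KRT8, KRT18 and ALDH1A1 were above 1000 CPM (counts scaled to library size) in every library. KRT19 reached at most 5.14 CPM, and SFTPB, SFTPC and NKX2-1 at most 0.617 CPM. EPCAM averaged 10.1 CPM in shControl untreated and 5.35 in shControl treated cells, but 89.8 and 48.2 in shRNF113A cells. CDH1, AKR1B10, AKR1C1, AKR1C2 and ALDH3A1 lay between 32.7 and 4443 CPM. Of these, CDH1, AKR1B10, AKR1C1 and AKR1C2 averaged lower in shRNF113A than in shControl cells in both states. Summed markers of leukocytes lay between 1.19 and 4.51 CPM in every library and those of endothelial cells between 0 and 0.772 CPM. The fibroblast markers summed to between 3.62 and 35.2 CPM, nearly all of it COL1A1. The shControl replicate 2 libraries, untreated and with Cisplatin, stood apart: their chi-square per degree of freedom against the other replicates of their group was 63.5 to 96.0, against 4.06 to 18.1 for the other pairs, and values without both of these libraries are given where they change a result.

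The SAT1 results turn on an exon of 110 bases at chrX:23802411-23802520 (hg19, plus strand), within the SAT1 gene at chrX:23801290-23804343. It lies between an intron of 410 bases and one of 924 bases, and in the GENCODE annotation it belongs to a transcript marked for nonsense-mediated decay. Its sequence and the 2 messages made without and with it are shown because the reads were sorted by them, with an in-frame stop codon in capitals that begins at base 12 of the exon.
SAT1 exon of 110 bases: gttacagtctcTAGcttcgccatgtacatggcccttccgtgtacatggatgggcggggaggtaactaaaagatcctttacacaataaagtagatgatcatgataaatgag
spliced past the exon: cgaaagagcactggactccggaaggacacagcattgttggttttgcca
spliced into the exon: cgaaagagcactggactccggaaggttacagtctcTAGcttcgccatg

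Read from the annotated start codon, SAT1 without the exon holds 171 codons before its stop, and SAT1 with the exon holds 71, with the stop 239 bases before the last junction. The splice sites that compete at this exon are shown with the first and last bases of the introns, GT and AG, in capitals. They are the donor at chrX:23801992-23802012, the acceptor of the exon at chrX:23802381-23802419, its donor at chrX:23802512-23802532 and the next acceptor at chrX:23803415-23803453.
donor of the exon before it: ctccggaagGTaacccctcgc
acceptor of the exon: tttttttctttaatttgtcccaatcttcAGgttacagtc
donor of the exon: ataaatgagGTaaggtcctat
acceptor of the exon after it: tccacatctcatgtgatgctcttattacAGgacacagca

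SAT2, the paralog of SAT1 on the minus strand of chromosome 17 (chr17:7529552-7531194), lost exons at 2 junctions that are described with the splicing results. One junction leaves out an exon of 102 bases (chr17:7530261-7530362) together with one of 41 bases (chr17:7530071-7530111). The other leaves out an exon of 52 bases (chr17:7530681-7530732).
SAT2 exon of 102 bases: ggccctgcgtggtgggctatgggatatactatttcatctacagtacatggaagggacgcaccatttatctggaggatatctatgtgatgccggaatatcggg
SAT2 exon of 41 bases: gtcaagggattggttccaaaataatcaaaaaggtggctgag
SAT2 exon of 52 bases: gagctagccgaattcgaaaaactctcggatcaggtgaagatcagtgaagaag

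With all of its exons SAT2 holds 170 codons before the stop. Without the exons of 102 and 41 bases, 143 bases in all, it holds 71, and without the exon of 52 bases it holds 23.

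Cisplatin raised the mRNA of both acetyltransferases and of ODC1, and lowered that of AMD1 and SMS, in control and in RNF113A-depleted cells. Depletion raised ODC1 in both states and SMOX without drug, and it lowered PAOX in both states. Gene counts were compared with edgeR's quasi-likelihood test, in which a gene passed at an adjusted p under 0.05 (Benjamini-Hochberg, over the 15352 genes tested). Of the 10 genes, 7 passed for Cisplatin in control cells (3 higher, 4 lower), where 55.0% of all genes tested passed. In depleted cells 6 passed (3 higher, 3 lower), against 60.2% of all genes. For depletion, 3 passed without drug (2 higher, 1 lower) and 4 with Cisplatin (2 higher, 2 lower), against 27.4% and 42.9% of all genes. The numbers that passed were thus close to the share in all genes in each comparison. With a limit of 2-fold added, 1 gene was called for Cisplatin in control cells (19.8% of all genes), 3 in depleted cells (23.1%), 2 for depletion without drug (8.66%) and 0 for depletion with Cisplatin (12.3%), where 4 passed on the adjusted p alone. In a model of Cisplatin and depletion with no term for their interaction, Cisplatin called 2 genes, SAT1 and SAT2 (21.5% of all genes), and depletion called SMOX (11.0%). The median log2 fold change of the 10 genes was 0.08 for Cisplatin in control cells and 0.01 in depleted cells, beside -0.01 and 0.06 over all genes. The Cisplatin comparisons and the depletion comparisons share libraries, so they are given side by side and were not set against each other as independent evidence.

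**Figure D1:**
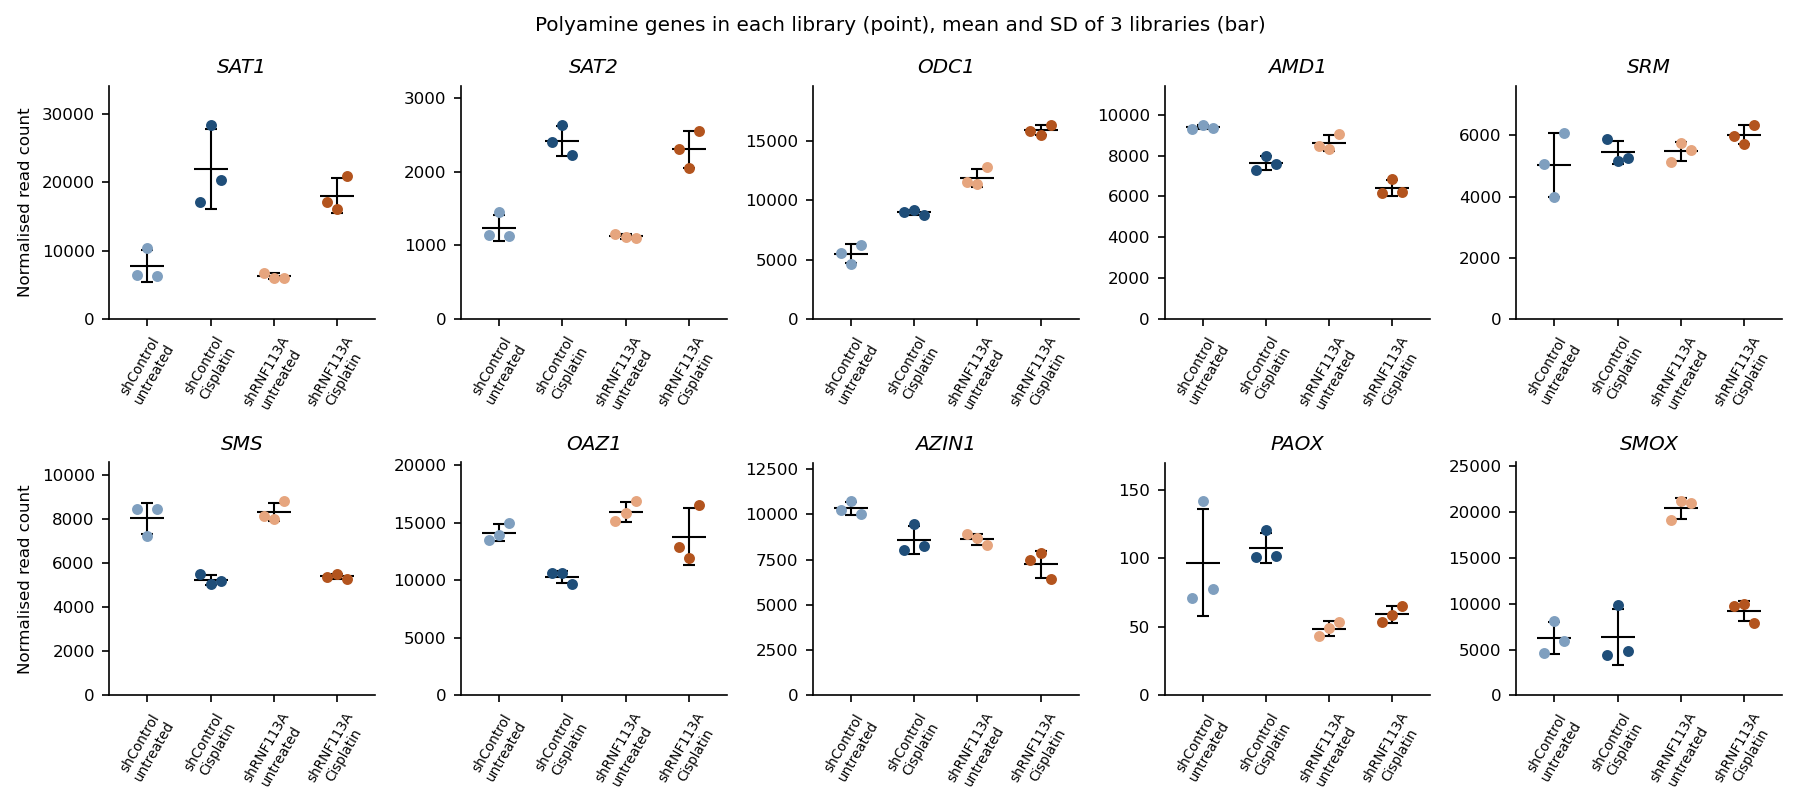
Normalised read count (y axis, median-ratio scaling, linear from 0) of the 10 polyamine genes in each library. Points are libraries, the horizontal mark is the mean of 3 and the bar the SD, for the 4 groups on the x axis. SAT1, SAT2 and ODC1 stand higher with Cisplatin in both kinds of cells, and SMOX lies between 19088 and 21135 in shRNF113A untreated cells, above the other groups.

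SAT1 was the gene of the 10 that Cisplatin raised most. Its normalised read counts were 6404, 10384 and 6278 in shControl untreated cells and 17157, 28368 and 20257 in shControl cells with Cisplatin. They were 6713, 5979 and 6036 in shRNF113A untreated cells and 17086, 16054 and 20879 in shRNF113A cells with Cisplatin. Every treated library was above every untreated one, and in each treatment the replicate 2 library was the highest of the control cells. The log2 fold change for Cisplatin was 1.52 ± 0.21 (SE) in control cells (adjusted p = 7.07e-05) and 1.58 ± 0.21 in depleted cells (adjusted p = 4.54e-05). For depletion the SAT1 values were -0.29 without drug (adjusted p = 0.325) and -0.24 with Cisplatin (adjusted p = 0.369), and the groups overlapped. Without both shControl replicate 2 libraries these depletion values of SAT1 were -0.01 and -0.02. The difference between the Cisplatin effects in depleted and control cells was 0.05 ± 0.30 for SAT1 (adjusted p = 0.945).

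SAT2 is named for its likeness to SAT1, although thialysine rather than a polyamine is its better known substrate. It had normalised read counts of 1144, 1449 and 1125 in shControl untreated cells and 2403, 2642 and 2230 in shControl cells with Cisplatin. In shRNF113A cells they were 1153, 1119 and 1096 untreated and 2308, 2052 and 2558 with Cisplatin. Again the treated and untreated libraries did not overlap, while control and depleted libraries did. Cisplatin changed SAT2 by 0.98 ± 0.11 in control cells (log2, adjusted p = 1.50e-05) and by 1.09 ± 0.11 in depleted cells (adjusted p = 5.70e-06), on either side of the 2-fold limit. Without both shControl replicate 2 libraries SAT2 was past that limit in control cells too, at 1.05. Depletion left SAT2 at -0.13 without drug (adjusted p = 0.409) and -0.03 with Cisplatin (adjusted p = 0.850).

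ODC1, the first and regulated enzyme of polyamine synthesis (chr2:10580094-10588630, minus strand), moved with both factors. Its normalised read counts were 5576, 4641 and 6216 in shControl untreated cells, 8995, 9176 and 8752 in shControl cells with Cisplatin, 11554, 11332 and 12757 in shRNF113A untreated cells and 15852, 15466 and 16340 in shRNF113A cells with Cisplatin. None of the 4 groups overlapped another. Depletion raised ODC1 by a log2 fold change of 1.13 ± 0.09 without drug (adjusted p = 7.35e-06) and 0.87 ± 0.09 with Cisplatin (adjusted p = 4.17e-05). Cisplatin raised it by 0.73 ± 0.09 in control cells (adjusted p = 3.63e-05) and 0.47 ± 0.09 in depleted cells (adjusted p = 0.000905). The difference between these effects on ODC1 was -0.26 ± 0.13 (adjusted p = 0.279).

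The steps after ODC1 did not follow it. AMD1, which makes the aminopropyl donor, fell with Cisplatin by 0.29 on the log2 scale in control cells (adjusted p = 0.00308) and by 0.38 in depleted cells (adjusted p = 0.000388), and fell by 0.21 with depletion in treated cells (adjusted p = 0.0262). The last AMD1 value did not pass without shRNF113A Cisplatin replicate 1 (adjusted p = 0.0503) or replicate 3 (adjusted p = 0.0864). Its group means of normalised counts ran from 6409 to 9398. Spermine synthase, SMS, fell by 0.60 in control cells (adjusted p = 2.45e-05) and by 0.58 in depleted cells (adjusted p = 2.86e-05). In SMS the treated libraries, from 5063 to 5536 normalised counts, all lay below the untreated ones, from 7247 to 8822. Spermidine synthase, SRM, passed in no comparison, with log2 values between 0.13 and 0.19 and overlapping groups in all 4. Without shControl untreated replicate 3 the Cisplatin value of SRM in control cells was 0.28 (adjusted p = 0.0435).

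Among the regulators of ODC1 protein, OAZ1 had group means of 14126 ± 743 (SD, n = 3) in shControl untreated cells, 10305 ± 514 in shControl cells with Cisplatin, 15913 ± 878 in shRNF113A untreated cells and 13790 ± 2439 in shRNF113A cells with Cisplatin. The antizyme mRNA was thus lowest in treated control cells. It fell by 0.44 with Cisplatin in control cells (log2, adjusted p = 0.00417) and was higher by 0.46 with depletion in treated cells (adjusted p = 0.00492), while the OAZ1 values for Cisplatin in depleted cells (-0.16) and depletion without drug (0.18) did not pass. Without shRNF113A Cisplatin replicate 3 the value in depleted cells was -0.31 (adjusted p = 0.00766). AZIN1 fell with Cisplatin in control cells, by 0.25 (adjusted p = 0.0269). Its other log2 values were -0.21, -0.25 and -0.20 (adjusted p = 0.0583, 0.0520 and 0.0797), just above the limit, and the groups of AZIN1 did not overlap in any of the 4 comparisons. Which AZIN1 values passed changed with the library left out, and the value in control cells did not pass without shControl untreated replicate 2 (adjusted p = 0.0587), shControl Cisplatin replicate 1 (0.136) or 3 (0.114), or shRNF113A Cisplatin replicate 1 (0.0504).

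The oxidases moved with depletion, in opposite directions. SMOX, spermine oxidase (chr20:4101627-4168394, plus strand), had normalised read counts of 4661, 8144 and 5960 in shControl untreated cells and 4371, 9864 and 4885 in shControl cells with Cisplatin. They were 19088, 21135 and 20927 in shRNF113A untreated cells and 9691, 9912 and 7930 in shRNF113A cells with Cisplatin. The untreated depleted libraries were above all others, and the replicate 2 library was the highest control library in each treatment. Depletion raised SMOX by a log2 fold change of 1.71 ± 0.28 without drug (adjusted p = 0.000816), and for Cisplatin in depleted cells the value was -1.10 ± 0.27 (adjusted p = 0.00365). In control cells the Cisplatin value of SMOX was 0.04 (adjusted p = 0.914), and -0.42 without shControl Cisplatin replicate 2 (adjusted p = 0.0826). The value for depletion in treated cells was 0.57 ± 0.27 (adjusted p = 0.105).

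For SMOX the 2 shControl libraries that stood apart decided a call. Without both of them, a choice made after the data were seen, depletion in treated cells raised SMOX by 1.03 (adjusted p = 1.94e-06), and without the treated one alone by 0.98 (adjusted p = 0.0021). The difference between the Cisplatin effects on SMOX, depleted minus control cells, was -1.14 ± 0.38 (adjusted p = 0.108). It was -0.93 without both libraries (adjusted p = 0.00113) and -1.38 without the untreated one alone (adjusted p = 0.0341). With the replicate number as a block, on all libraries, the SMOX difference was -1.11 (adjusted p = 0.0425) and the value for depletion in treated cells 0.65 (adjusted p = 0.0169). The same-numbered libraries deviated together in all 3 pairs for Cisplatin in control cells, but not in every pair of the other comparisons. In control cells replicates 1 and 3 also deviated together across numbers (correlations 0.391 and 0.364), so the values do not settle whether these were paired by number. None of the 10 genes passed for this difference in the fit of all libraries without the block, where SMOX had an unadjusted p of 0.0108 and was the only one of the 10 under 0.05, and 4.25% of all genes passed. DESeq2 gave SMOX a value of -1.18 (adjusted p = 0.0953).

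PAOX, the oxidase of the acetylated polyamines (chr10:135192695-135205198, plus strand), was by far the scarcest of the 10. Its normalised read counts were 70.9, 142 and 77.5 in shControl untreated cells, 101, 120 and 102 in shControl cells with Cisplatin, 43.2, 49.3 and 53.7 in shRNF113A untreated cells and 53.4, 58.7 and 65.5 in shRNF113A cells with Cisplatin. All depleted libraries lay below all control libraries. The log2 fold change of PAOX for depletion was -0.98 ± 0.26 without drug (adjusted p = 0.0139) and -0.82 ± 0.25 with Cisplatin (adjusted p = 0.0205). Without both shControl replicate 2 libraries the first of these was -0.60 (adjusted p = 0.0179). Neither passed without replicate 1 of its depleted group, with -0.90 (adjusted p = 0.0573) and -0.80 (adjusted p = 0.0595). The Cisplatin values of PAOX were 0.17 in control and 0.33 in depleted cells (adjusted p = 0.584 and 0.304), with overlapping groups. Without both of those libraries the value in control cells was 0.47 (adjusted p = 0.0399).

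**Figure D2:**
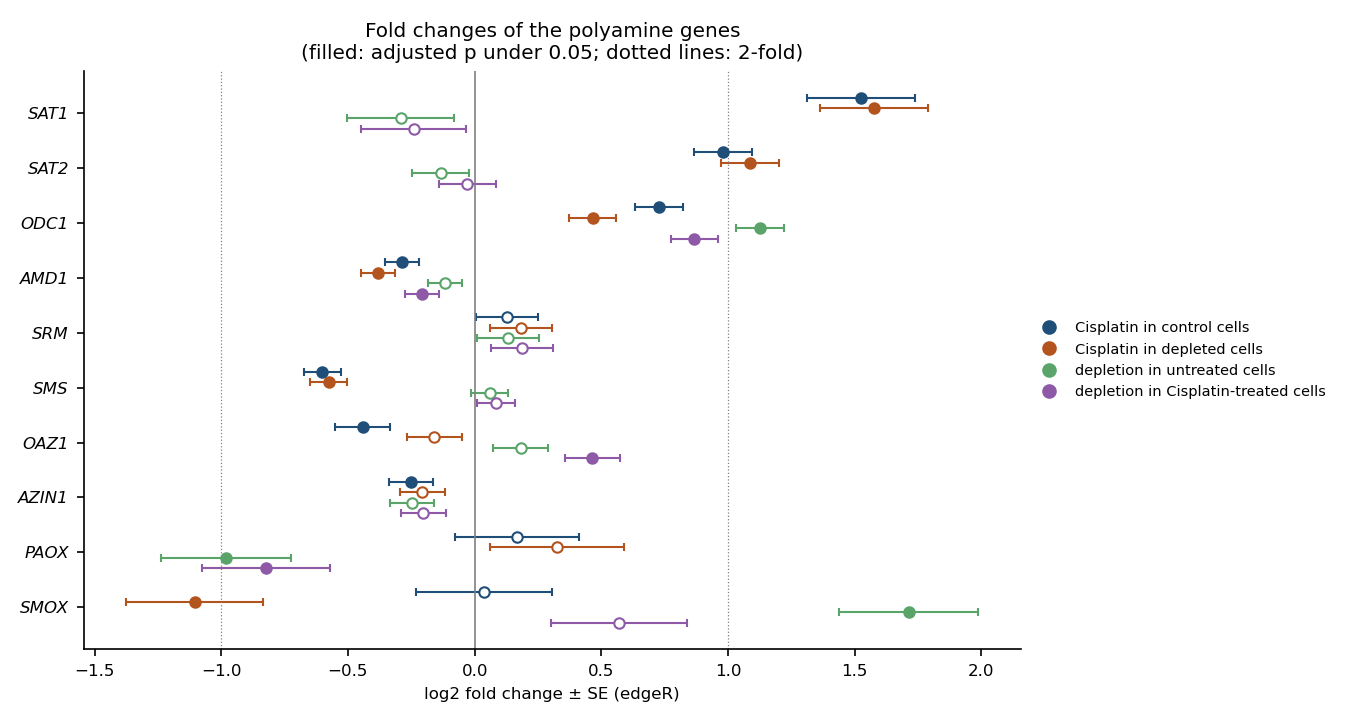
Log2 fold change (x axis, edgeR, bars ± SE) of the 10 polyamine genes (y axis) in the 4 comparisons, by colour. Filled points passed at an adjusted p under 0.05, open points did not, and dotted lines mark 2-fold. SAT1 lies at 1.52 and 1.58 for Cisplatin, and SMOX at 1.71 for depletion without drug and -1.10 for Cisplatin in depleted cells.

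Per length of gene, as CPM divided by kilobases of exon, OAZ1 had the highest level in untreated cells, at 248 ± 14.0 (SD, n = 3) with shControl and 282 ± 15.4 with shRNF113A. With Cisplatin SAT1 stood first, at 343 ± 92.8 in control and 296 ± 47.5 in depleted cells. The ranges of SAT1 and OAZ1 were apart in treated control cells, whereas they overlapped in treated depleted cells. SMOX was the second gene in shRNF113A untreated cells, at 226 ± 13.0, and its range met no neighbour's. In shControl untreated cells the 7 genes from SAT1 (123) down to ODC1 (51.7) each overlapped the next in order. PAOX was last in every group, between 0.605 and 1.47.

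The genes whose log2 level over the 12 libraries followed that of SAT1 most closely, out of 9778, were BAK1, CSRNP1, TEAD3, ZNF436 and DYRK3. Their root mean square difference from SAT1 was 0.206 to 0.224 on the log2 scale, beside an SD of 0.858 for SAT1 itself. This is a description, since depth and treatment are shared by all genes of a library.

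A longer list of genes of polyamine metabolism was counted in the same fits. It holds suppliers of ornithine and S-adenosylmethionine, antizymes and their inhibitor, the methylthioadenosine salvage, the hypusine pathway and transporters. Of 27 genes found, 23 were tested. ARG1 had 0 counts in every library, and SATL1, AOC1 and ALOX15 did not pass the filter. For Cisplatin, 7 passed higher and 5 lower in control cells, and 10 and 2 in depleted cells, where 55.0% and 60.2% of all genes passed. For depletion the counts were 3 and 4 without drug and 6 and 4 with Cisplatin, against 27.4% and 42.9% of all genes. The numbers in the list were thus near the background in each comparison. The median log2 fold change of the 23 genes was 0.16 and 0.36 for Cisplatin in control and depleted cells, beside -0.01 and 0.06 over all genes, and -0.08 and 0.01 for depletion without and with drug.

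MRI1, an isomerase of methylthioadenosine salvage, and EIF5A2, which carries the spermidine-derived residue hypusine, were the genes of that list at 10 CPM or more with a change of 2-fold. MRI1 rose with Cisplatin by a log2 fold change of 0.91 in control cells (adjusted p = 0.000116) and 1.01 in depleted cells (adjusted p = 4.27e-05). EIF5A2 had normalised counts of 810, 785 and 782 in shControl untreated cells, 942, 1191 and 972 with Cisplatin, 395, 378 and 421 in shRNF113A untreated cells and 778, 834 and 770 with Cisplatin. The untreated depleted libraries were the lowest. Cisplatin raised EIF5A2 by 0.40 in control (adjusted p = 0.00337) and 1.05 in depleted cells (adjusted p = 2.15e-06), and these differed by 0.65 ± 0.14 (adjusted p = 0.0242). That difference in EIF5A2 did not pass without any 1 of 8 of the 12 libraries (adjusted p from 0.0515 to 0.0744).

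Below 10 CPM, and named after their values were seen, 3 further genes of the list changed 2-fold in some comparison. ARG2, the mitochondrial arginase that makes ornithine, rose with Cisplatin by 2.81 in control cells (log2, adjusted p = 1.54e-05) and 1.39 in depleted cells (adjusted p = 0.00256), where the unstranded counts gave ARG2 a value of 0.04 (adjusted p = 0.831). Its value for depletion in treated cells was -1.18 (adjusted p = 0.00817), where the shControl replicate 2 library held 624 normalised counts and the other treated control libraries 247 and 275. The ARG2 values without both shControl replicate 2 libraries were 2.33 for Cisplatin in control cells (adjusted p = 4.91e-08) and -0.64 for depletion in treated cells (adjusted p = 0.00299). MTAP, which starts the salvage of methylthioadenosine, fell with Cisplatin by 0.93 in control cells (adjusted p = 1.96e-05) and by 1.07 in depleted cells (adjusted p = 5.13e-06), and was higher with depletion by 0.53 without drug (adjusted p = 0.00381) and 0.39 with Cisplatin (adjusted p = 0.0149). The last MTAP value did not pass without any 1 of 4 libraries (adjusted p from 0.0579 to 0.103). AZIN2, a relative of AZIN1, fell by 1.05 with depletion in untreated cells (adjusted p = 0.0194), where the shControl replicate 2 library held 155 normalised counts and the other control libraries 63.9 and 78.5. Without both shControl replicate 2 libraries the AZIN2 value was -0.56 (adjusted p = 0.027), and it did not pass without shRNF113A untreated replicate 1 (adjusted p = 0.0675) or 3 (adjusted p = 0.0611).

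In splicing, SAT1 and SAT2 were the genes of the 10 with called events. The inclusion level is the length-corrected share, from 0 to 1, of an event's reads that come from the inclusion form. Calls needed mean levels at least 0.2 apart besides an adjusted p below 0.05. Of the 68 events tested for Cisplatin in depleted cells, 4 were called (0.283% of all events) and 13 passed on p alone (2.61%). For depletion in treated cells 3 of 69 were called (0.172%) and 13 passed (2.32%). For Cisplatin in control cells 0 of 71 were called (0.0681%) and 2 passed (0.529%), and for depletion in untreated cells 0 of 63 were called (0.0580%) and 1 passed (0.906%). The libraries of a group carry no names in these tables, so the letters a, b and c stand for their listed order. These events overlap and share reads, so they are not independent of each other. Without library c of shRNF113A cells with Cisplatin the 3 calls for depletion in treated cells became 0.

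The exon of 110 bases in SAT1 was included at levels of 0.553, 0.556 and 0.441 in shControl untreated cells and 0.442, 0.523 and 0.444 in shControl cells with Cisplatin. In shRNF113A untreated cells the levels were 0.565, 0.572 and 0.508. In shRNF113A cells with Cisplatin they were 0.261, 0.285 and 0.139. The treated depleted libraries were thus below all others, with library c the lowest, and the other 3 groups overlapped. The mean difference in level was -0.320 for Cisplatin in depleted cells (adjusted p = 6.48e-15, edgeR) and -0.241 for depletion in treated cells (adjusted p = 2.90e-05). Without library c the latter was -0.196 (adjusted p = 0.013). For Cisplatin in control cells it was -0.048 (adjusted p = 0.712) and for depletion in untreated cells 0.031 (adjusted p = 0.720). The edgeR fit pooled the spread over all events and used none of the spread of SAT1 itself, so the exact permutation test is given beside it. Its two-sided p was 0.1 for each of the 2 lower comparisons, the smallest that 3 libraries against 3 can give, and 0.4 and 0.5 for the others.

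In an edgeR fit the effect of depletion on this exon differed with treatment. This fit too pooled the spread over all events and used none of the spread of SAT1 itself, and no exact test was made for it. The difference between the depletion effects, with Cisplatin minus without, was -1.82 ± 0.34 in log2 odds (adjusted p = 0.0011), and SAT1 was the gene behind 1 of the 10 events of 38645 (0.0259%) that passed. Of the 29 events of the polyamine genes tested for it, no other passed. Without library c of shRNF113A cells with Cisplatin the value was -1.42 (adjusted p = 0.188), and without library c of shControl untreated cells -1.60 (adjusted p = 0.0829).

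The reads of the 2 SAT1 forms were also compared as levels, each form as a feature of its own. These reads were not corrected for the effective length, 182 bases with the exon and 72 without it. The CPM of one form therefore cannot be set against that of the other. In TMM-scaled CPM, the form with the exon went from 25.4 ± 9.36 (SD, n = 3) to 76.4 ± 30.0 with Cisplatin in control cells, and from 17.4 ± 1.67 to 29.2 ± 4.14 in depleted cells. The form without it went from 9.22 ± 2.44 to 33.0 ± 6.41 in control cells and from 5.67 ± 0.409 to 42.1 ± 15.4 in depleted cells. Within each kind of cell, no treated library overlapped an untreated one in either form. Cisplatin raised both forms of SAT1 in control cells, by log2 fold changes of 1.59 ± 0.12 with and 1.84 ± 0.14 without the exon (adjusted p = 2.54e-35 and 3.01e-39, where 21.9% of all forms passed). In depleted cells the 2 forms rose by 0.75 ± 0.09 and 2.89 ± 0.10 (adjusted p = 8.15e-16 and 1.48e-188, 31.3% of all forms). The exact permutation p was 0.1 for each of these 4 values, the smallest possible.

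With depletion in treated cells the form with the exon fell by 1.31 on the log2 scale (adjusted p = 2.04e-40, where 15.8% of all forms passed). The form without it was higher by 0.43 (adjusted p = 0.000185), but its libraries overlapped, with 27.1, 40.1 and 31.3 CPM in control and 37.2, 32.9 and 62.6 in depleted cells, and the exact permutation p was 0.4. Without library c of the depleted cells the value was 0.09 (adjusted p = 0.685). For depletion in untreated cells the values were -0.49 with and -0.66 without the exon (adjusted p = 0.00265 and 0.000388, 7.52% of all forms). The first overlapped between groups (exact permutation p = 0.2), and without shControl untreated library b it was -0.15 (adjusted p = 0.517). It also did not pass without shControl untreated library a (adjusted p = 0.122) or shRNF113A untreated library c (adjusted p = 0.523), and without the latter neither did the form without the exon (-0.71, adjusted p = 0.159).

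**Figure D3:**
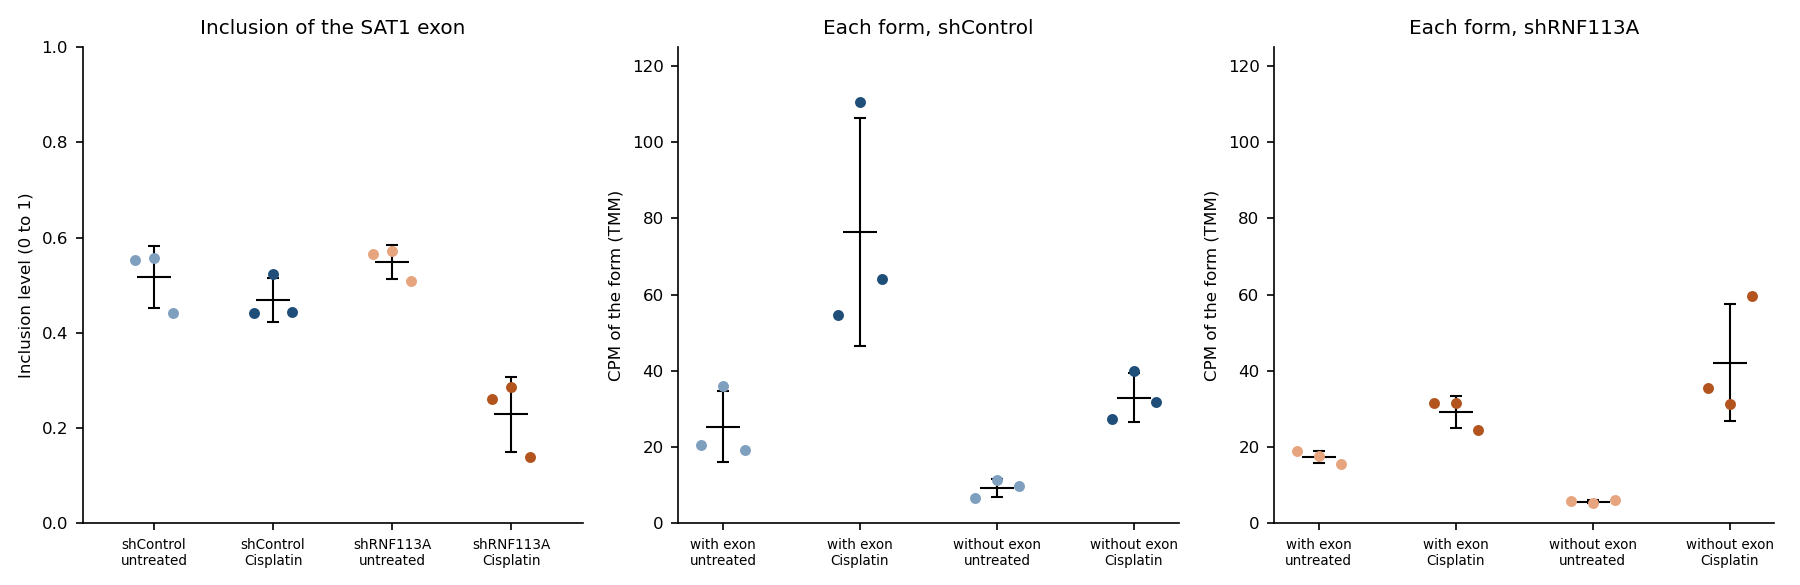
Left, inclusion level of the 110-base SAT1 exon (y axis, 0 to 1) in each library of the 4 groups. Middle and right, TMM-scaled CPM of the forms with and without the exon, untreated and with Cisplatin, in control and depleted cells. Points are libraries, marks means of 3 and bars SD. The treated depleted libraries lie at 0.139 to 0.285, and all others at 0.441 or above.

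The other SAT1 events moved little. The exon of 84 bases before it (chrX:23801917-23802000) was included at levels of 0.980 or more in every library, and rose by 0.012 for Cisplatin in depleted cells (adjusted p = 0.0143). The exon of 102 bases after it (chrX:23803445-23803546) was included at 0.997 or more, with a fall of 0.003 for depletion in treated cells (adjusted p = 0.0056). The pair of the 84-base and 110-base exons listed as mutually exclusive gave levels of 0.693, 0.637 and 0.691 in treated control and 0.812, 0.787 and 0.887 in treated depleted cells, a difference of 0.155 (adjusted p = 9.21e-12). That event counts the same reads of the 110-base exon. For the remaining SAT1 events the difference was at most 0.03 in either direction and none passed.

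SAT2 lost exons in treated depleted cells as well. For the junction past the 102-base and 41-base exons, the reads were 1, 3 and 0 in shRNF113A untreated cells, 29, 23 and 38 in shRNF113A cells with Cisplatin and 7, 13 and 10 in shControl cells with Cisplatin. The inclusion level of the 102-base exon was 0.988, 0.960 and 1.000, then 0.773, 0.791 and 0.649, and 0.953, 0.937 and 0.948 in these groups. The treated depleted libraries were below both others. The mean difference was -0.245 for Cisplatin in depleted cells (adjusted p = 4.52e-07) and -0.209 for depletion in treated cells (adjusted p = 1.50e-05). A longer version of the next exon, of 87 bases, has the same skipping reads and fewer inclusion reads, and its SAT2 differences were -0.411 (adjusted p = 0.000392) and -0.293 (adjusted p = 0.0274). The exact permutation p was 0.1 in all of these. Without library c of treated depleted cells the SAT2 value of the 102-base exon for depletion was -0.164 (adjusted p = 0.0168). The 87-base exon passed for depletion only with all libraries (adjusted p from 0.0677 to 0.561 without any 1 of 6), and for Cisplatin its adjusted p was 0.081 without library c of untreated depleted cells. Neither event is listed in the comparisons that hold shControl untreated cells.

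The 52-base exon of SAT2 was skipped after Cisplatin in both kinds of cells. The reads that skipped it were 1, 2 and 0 in shControl untreated cells, 20, 33 and 19 in shControl cells with Cisplatin, 3, 4 and 3 in shRNF113A untreated cells and 30, 20 and 51 in shRNF113A cells with Cisplatin. Its level fell by 0.078 in control cells (adjusted p = 0.0187) and by 0.170 in depleted cells (adjusted p = 1.58e-05). The same skipping reads, set against a first exon that runs on to the donor of the 52-base exon, form an alternative 5′ splice site event of SAT2 with differences of -0.139 (adjusted p = 0.00219) and -0.249 (adjusted p = 7.08e-07) for Cisplatin and -0.155 for depletion in treated cells (adjusted p = 0.0114). Without library c of treated depleted cells the SAT2 value of -0.249 became -0.188 (adjusted p = 0.00194).

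The SAT2 intron between the 52-base and 84-base exons was kept at levels of 0.058, 0.072 and 0.041 in shControl untreated cells and 0.081, 0.068 and 0.094 in shControl cells with Cisplatin. It was kept at 0.089, 0.117 and 0.104 in shRNF113A untreated cells and 0.161, 0.154 and 0.215 in shRNF113A cells with Cisplatin. Depleted libraries were above control libraries in both states. The rise was 0.046 without drug (adjusted p = 0.0384) and 0.096 with Cisplatin (adjusted p = 0.00366), and Cisplatin raised the level by 0.073 in depleted cells (adjusted p = 0.00942). The exact permutation p was 0.1 in each. SAT2 overlaps SHBG on the other strand over 1643 bases.

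**Figure D4:**
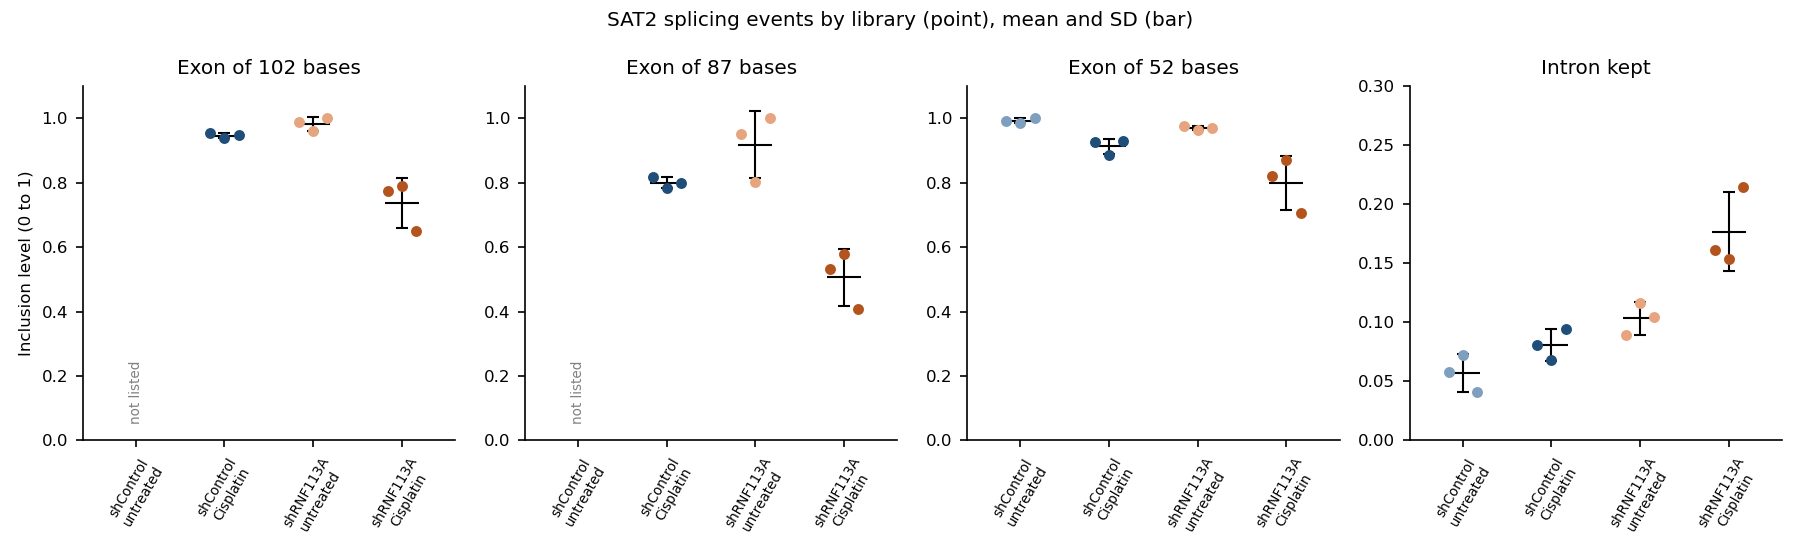
Inclusion level (y axis) of 3 SAT2 exons and of a SAT2 intron in each library (points), with mean and SD of 3, for the 4 groups on the x axis. The scale of the intron panel ends at 0.3, and shControl untreated cells are marked where the event is not listed for them. The treated depleted libraries lie lowest for the 102-base exon, at 0.649 to 0.791, and highest for the intron, at 0.154 to 0.215.

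Outside SAT1 and SAT2, 4 tests passed on p alone, all with small differences. An OAZ1 intron was kept at 0.005, 0.007 and 0.004 in shRNF113A untreated, 0.005, 0.003 and 0.007 in shControl treated and 0.018, 0.013 and 0.013 in shRNF113A treated cells, and rose by 0.009 in both comparisons with the last group (adjusted p = 3.02e-13 and 8.53e-05). An AMD1 exon of 103 bases fell by 0.040 (adjusted p = 0.0199) and an ODC1 exon of 173 bases by 0.008 (adjusted p = 0.0246) for Cisplatin in depleted cells. No event of SRM, SMS, AZIN1, PAOX or SMOX passed. In PAOX the 1 event tested rested on as few as 16 reads in a library, and its differences ran from -0.277 to 0.258.

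The share of intronic reads among all reads of a gene moved with depletion in the 10 genes much as it did over all genes. Intronic and exonic reads were compared as odds in an edgeR fit over all genes with enough intronic reads. This fit drew much of its spread from all genes, and no exact test was made for it. For Cisplatin in control cells 0 of 10 genes passed (8.90% of all genes), and 2 of them, AMD1 and AZIN1, were under 0.05 before adjustment. With the replicate number as a block these 2 passed, at log2 odds ratios of 0.78 (adjusted p = 0.0212) and 0.69 (adjusted p = 0.0239), and they also passed without shControl Cisplatin replicate 2 (adjusted p = 0.00114 and 0.0129). In depleted cells 8 passed, 7 higher and 1 lower, against 81.2% of all genes. For depletion 8 passed without drug and 7 with Cisplatin, all higher, against 55.9% and 82.5% of all genes. The 8 without drug became 5, 4 and 5 without shControl untreated replicate 3, shRNF113A untreated replicate 1 and shRNF113A untreated replicate 2. The median log2 odds ratios of the 10 genes were 0.24, 0.77, 0.46 and 1.06 in these comparisons, beside 0.28, 0.74, 0.47 and 0.97 over all genes.

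AMD1 and ODC1 had the highest of these values for depletion in treated cells. The intronic share of AMD1 was 0.945% ± 0.405 (SD, n = 3) in treated control and 3.26% ± 0.893 in treated depleted cells, a log2 odds ratio of 1.84 (adjusted p = 2.69e-05). That of ODC1 was 1.15% ± 0.435 and 3.31% ± 0.255, a ratio of 1.60 (adjusted p = 2.91e-05). SMOX went from 9.25% ± 0.537 to 16.1% ± 0.488 with Cisplatin in depleted cells, by 0.91 (adjusted p = 4.63e-11), and did not pass for depletion in untreated cells (-0.14, adjusted p = 0.416).

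SAT1 was the 1 gene of the 10 that passed lower for Cisplatin in depleted cells. Its intronic share was 24.4% ± 1.77 in shControl untreated cells, 19.9% ± 4.37 in shControl cells with Cisplatin, 31.2% ± 0.0797 in shRNF113A untreated cells and 22.1% ± 3.78 in shRNF113A cells with Cisplatin. The log2 odds ratio of SAT1 rose by 0.50 with depletion in untreated cells (adjusted p = 0.00174) and fell by 0.69 with Cisplatin in depleted cells (adjusted p = 5.37e-07), while the median of all genes rose by 0.74. It was 0.20 for depletion in treated cells (adjusted p = 0.422). In the exon set used for these counts the 110-base exon lies within a longer annotated exon, so its reads count as exonic.

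**Figure D5:**
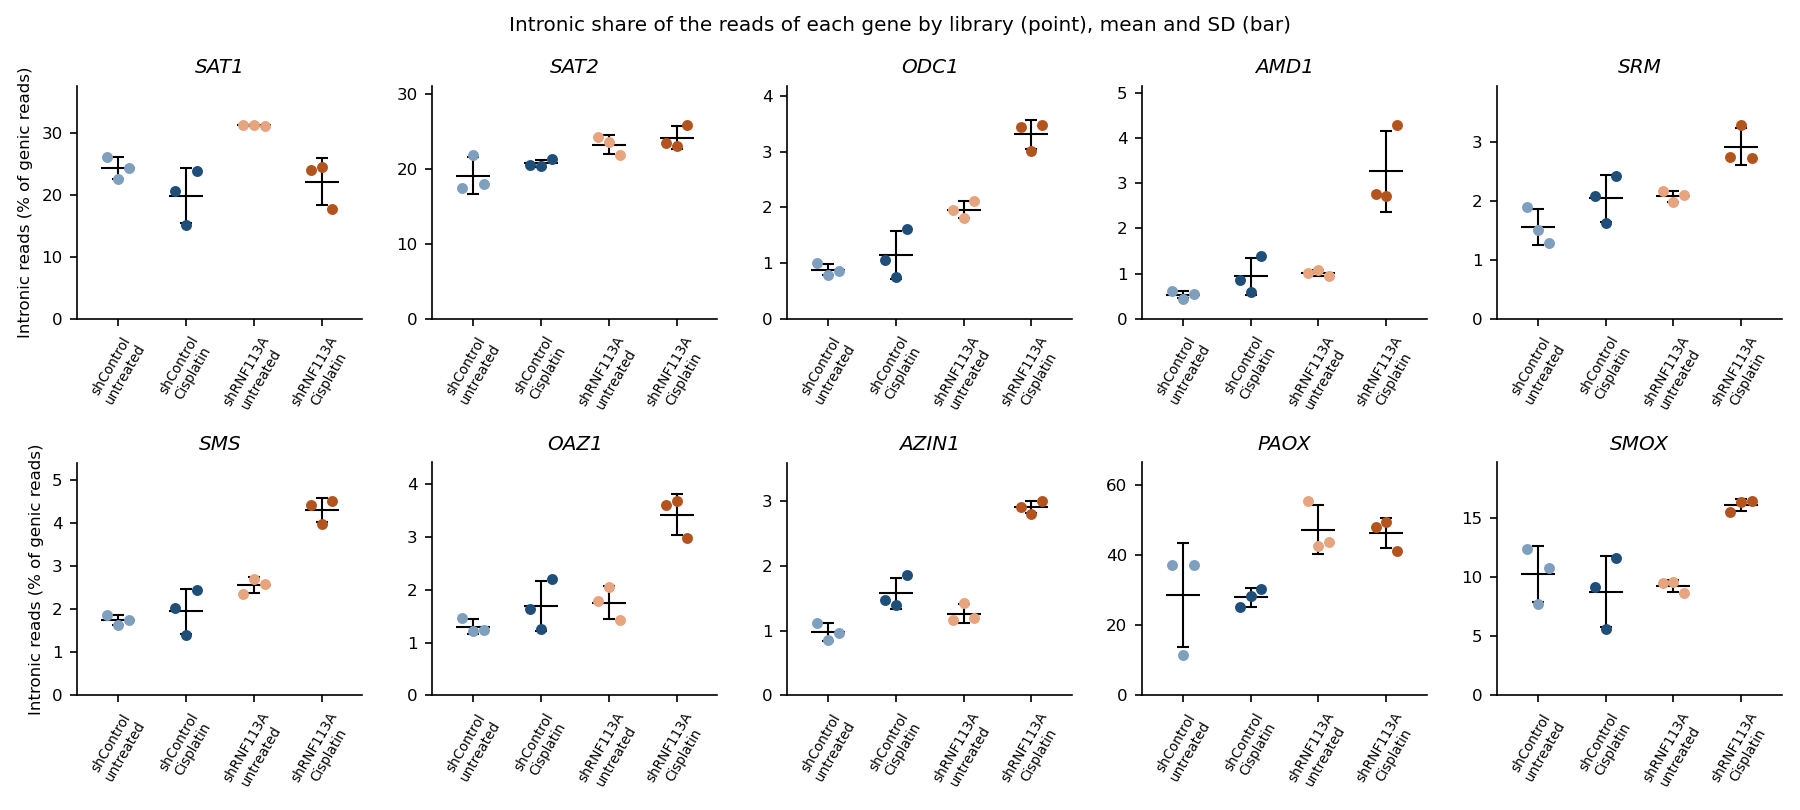
Intronic reads as a percentage of the reads of each gene (y axis, from 0, scaled per gene) in each library (points), with mean and SD of 3, for the 4 groups. AMD1, ODC1, SRM, SMS, OAZ1, AZIN1 and SMOX stand highest in shRNF113A cells with Cisplatin. SAT2 has its highest mean there too, but overlaps shRNF113A untreated cells. SAT1 is highest, at 31.2%, in shRNF113A untreated cells.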

How the data were processed

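The authors aligned reads to hg19 with STAR 2.5.2b and deposited raw read pair counts per gene. The deposited rMATS tables hold, per the file headers, read counts of each event's forms. The p-values, FDR and differences in inclusion level in them are the authors' own comparisons and were not used. The deposited HTSeq counts cover exons and whole spans of protein-coding genes. Genes were fitted with edgeR 4.0.16 (TMM, filterByExpr), events and introns as form or region by group interactions. Events needed at least 10 reads in every library summed over both forms. Genes in the intron fits needed at least 10 intronic and at least 10 exonic reads in every library. DESeq2 1.42.0 gave the normalised counts printed. Of reads, 13.98% to 22.6% fell in rows naming no gene and were left out. This share was 22.6%, 21.8% and 22.6% in shRNF113A cells with Cisplatin, and 18.9% or less in the other groups. Depth limits precision. The p-values of the gene fits rest on the spread of the 3 biological replicates, drawn toward a spread shared by all genes. Those of the intron fits rest more on the spread shared by all genes, and no exact test was made for them. Those of skipped exon events and of their forms rest on a spread pooled over all events. The members and lists were chosen with earlier results of these data known. Named were all 10 members, genes of the longer list called at 10 CPM or more, the 5 closest to SAT1, and called or SAT1 events. Same-numbered replicates deviated together for Cisplatin in control cells (correlations 0.481, 0.668 and 0.376), but not in every pair elsewhere (-0.08 to 0.17). In that comparison replicates 1 and 3 also deviated together across numbers (0.391 and 0.364). Replicate 2 ran against both (-0.570 to -0.483). These values do not settle whether replicates 1 and 3 were paired by number. On simulated data the fits recovered 189, 170 and 183 of 200 changed genes, events and introns. Sequences came from the GRCh37 genome. Alternatives are under the closing heading on processing.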

Additional observations from a re-analysis of the deposited data

Results flagged for a closer look

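In 3 results the effect of one factor differed between the states of the other, by a test of the difference itself. The Cisplatin effect on OAT, ornithine aminotransferase, was higher in depleted than in control cells by 0.89 ± 0.19 (log2, adjusted p = 0.0251, edgeR). OAT had normalised counts of 3778, 4986 and 3312 in shControl untreated and 4179, 4121 and 3889 in treated cells, and 3158, 2846 and 3396 in shRNF113A untreated and 5485, 5222 and 6451 in treated cells, so the groups overlapped in control cells and not in depleted cells. The Cisplatin effect on EIF5A2 was higher in depleted cells by 0.65 (adjusted p = 0.0242). Leaving out 1 library ended the pass for 6 of the 12 libraries in OAT (adjusted p up to 0.0722) and for 8 in EIF5A2 (up to 0.0744). The effect of depletion on the 110-base exon of SAT1 was lower with Cisplatin, by a difference of -1.82 in log2 odds (adjusted p = 0.0011), which did not pass without library c of treated depleted or of untreated control cells. The fit of this exon pooled the spread over all events and used none of the spread of SAT1 itself. No cause was tested for any of these.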

How the results depend on the processing

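Of 1159 values of single polyamine genes under other settings, 1094 kept their direction and their side of the limit, 12 no longer passed, 42 passed anew and 11 changed sign. None of those that changed sign passed under the alternative, and they reached -0.42, for SMOX. Without both shControl replicate 2 libraries they were SAT2 for depletion (0.015) and for depletion in treated cells (0.032), SRM (-0.0095) and SMS (-0.0081) for depletion in untreated cells and SMOX for Cisplatin in control cells (-0.18). Without shControl untreated replicate 2 they were SRM for Cisplatin in control cells (-0.013) and for depletion in untreated cells (-0.0094) and SMS for the latter (-0.0080). Without shControl untreated replicate 1 PAOX (-0.015) and SMOX (-0.14), and without shControl Cisplatin replicate 2 SMOX (-0.42), changed sign for Cisplatin in control cells. The highest values of these genes without 1 library were 0.28 and 0.29 for SRM in the same 2 comparisons, 0.096 for SMS, 0.55 for PAOX and 0.28 for SMOX. With no limit on the fold the calls were 7 for Cisplatin and 6 for depletion in the model without an interaction, 7 and 6 for Cisplatin in control and depleted cells and 4 for depletion in treated cells. Scaling by library size gave 2 calls for depletion and 2 for Cisplatin in control cells, and a minimum of 10 counts in every library gave 2 for depletion. Library size scaling moved the median of all genes to 0.125 for Cisplatin (log2), and under it AMD1 (-0.19, adjusted p = 0.0532) and AZIN1 (-0.15, adjusted p = 0.225) no longer passed for Cisplatin in control cells. DESeq2 called 3 genes of the longer list, against 5. Without both shControl replicate 2 libraries 2 genes were called for Cisplatin in control cells and 1 for depletion in treated cells. Levels only 0.1 apart gave 1, 8 and 8 splicing calls for Cisplatin in control cells, Cisplatin in depleted cells and depletion in treated cells, and no limit on levels gave 2, 13 and 13, with 1 for depletion in untreated cells. The cause was not tested for these.

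With the replicate number as a block, 1 gene, SMOX, was called for the difference between the Cisplatin effects (-1.11, adjusted p = 0.0425), SMOX passed for depletion in treated cells (0.65, adjusted p = 0.0169), and the intronic ratio passed for 2 genes for Cisplatin in control cells. AZIN1 passed under the block for Cisplatin in depleted cells and for depletion in both states (adjusted p = 0.0289, 0.0279 and 0.0436). The block moved no other count by more than 1.5 times. The splicing tables name no replicate, so no paired analysis of events was made.

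Leaving out 1 library at a time gave 1 to 2 calls for Cisplatin and 0 to 2 for depletion in the model without an interaction, 0 to 1 for the interaction, 1 to 2 for Cisplatin in control cells and 3 to 6 for the longer list. Splicing calls for depletion in treated cells ran from 0 to 3. The SAT1 exon ran from -0.0066 to 0.052 in level for depletion in untreated cells, turning negative without shControl untreated library c, and its difference between depletion effects from -2.07 to -1.42. The SAT1 form with the exon ran from -0.66 to -0.15 and the form without it from -0.85 to -0.48 for depletion in untreated cells, and the latter from 0.092 to 0.60 for depletion in treated cells. The intronic ratio passed for 0 to 2 genes for Cisplatin in control cells and 4 to 8 for depletion in untreated cells. Depth limits PAOX most, and the SAT2 junctions rest on 51 skipping reads or fewer in a library.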
